A study of Mus musculus with 12 samples.

Results

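Gonadal somatic cells of mouse embryos on embryonic day 12.5 (E12.5) were compared with those of E11.5 across all 616 microRNAs listed in the table of all samples. The comparison takes 4 of the 12 libraries, 1 female and 1 male library at each stage, picked by the stage and cell type in their labels and not by any measured value. The series profiled small RNAs of these cells and of the primordial germ cells (PGCs) of such gonads, with E13.5 as the latest day. All embryos were of the CD1 strain, with no mutation or treatment named in the labels. Each embryo was sexed by PCR, the mesonephros (the embryonic kidney beside the gonad) was cut away, and groups of about 80 gonads were pooled. Anti-CD15 paramagnetic beads then drew off the PGCs, and the remaining stromal cells, with a stated purity of over 90%, were the somatic fraction. The labels name no further sort, so the fraction can hold any gonadal cell type that CD15 beads leave behind. RNA under 100 bp was used. No combination of stage and sex was repeated, so the female and the male library are the only 2 replicates of a stage, and a p-value here measures the spread between those libraries.

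A microRNA is cut as a short duplex from a hairpin precursor. Usually the strand from 1 arm (5p or 3p) is loaded into an Argonaute protein, where the seed, bases 2 to 8, guides it to messenger RNAs that are then silenced. Around these stages the bipotential gonad begins to form a testis in XY and an ovary in XX embryos. Its supporting precursors become Sertoli cells (testis) or pregranulosa cells (ovary), alongside steroidogenic and interstitial precursors, blood vessels and blood cells.

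Mature sequences were taken from RefSeq (GRCm38.p6), in which 526 of the 616 listed names were matched. The first set shows microRNAs that were called higher at E12.5, though not every one of them, with the seed in capitals. The let-7 members share 1 seed, and miR-202-3p shares bases 2 to 7 with them.
miR-202-5p: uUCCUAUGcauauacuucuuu
miR-202-3p: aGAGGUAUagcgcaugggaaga
let-7a-5p: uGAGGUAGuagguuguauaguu
let-7b-5p: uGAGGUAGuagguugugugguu
let-7c-5p: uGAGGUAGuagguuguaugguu
let-7d-5p: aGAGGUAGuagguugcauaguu
let-7f-5p: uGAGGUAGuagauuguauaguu
miR-10b-5p: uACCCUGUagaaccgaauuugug
miR-322-3p: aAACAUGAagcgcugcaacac

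The second set shows microRNAs that were lower at E12.5, grouped by seed where they share one. miR-30a-5p and miR-30e-5p have the same seed and differ at 1 base, as do let-7b-5p and let-7c-5p above. miR-18a-5p and miR-18b-5p differ at 2 bases. Reads of such near-identical sequences can be assigned to the wrong member by the counting, and values for single members carry that uncertainty. miR-32-5p and miR-92b-3p share their seed.
miR-490-3p: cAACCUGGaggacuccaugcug
miR-144-3p: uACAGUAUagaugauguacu
miR-136-5p: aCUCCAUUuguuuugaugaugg
miR-142a-3p: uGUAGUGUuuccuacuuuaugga
miR-32-5p: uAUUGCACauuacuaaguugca
miR-92b-3p: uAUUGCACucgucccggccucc
miR-96-5p: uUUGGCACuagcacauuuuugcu
miR-200a-3p: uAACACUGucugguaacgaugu
miR-30a-5p: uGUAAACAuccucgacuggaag
miR-30e-5p: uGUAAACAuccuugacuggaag
miR-18a-5p: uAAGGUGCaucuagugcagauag
miR-18b-5p: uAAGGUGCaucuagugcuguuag
miR-19a-3p: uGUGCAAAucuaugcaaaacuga

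The 4 somatic libraries held 1768825 (E11.5 female), 611229 (E11.5 male), 1492596 (E12.5 female) and 1380552 (E12.5 male) microRNA reads, and values are given as reads per 1000000 microRNA reads (RPM). The smallest value listed stands for 5 reads, which is 2.83, 8.18, 3.35 and 3.62 RPM in these libraries, and a value of 0 means under 5 reads. All 4 libraries detected 438 of the microRNAs and 45 were at 0 in all 4. The E12.5 libraries resembled each other more (Pearson r = 0.989 across tested microRNAs, a description) than the E11.5 libraries did (r = 0.942). The median absolute log2 difference between female and male was 0.58 at E11.5 and 0.24 at E12.5. Across the 388 tested microRNAs with a sequence, GC content ran against the change in males (Spearman rho = -0.37) and weakly with it in females (rho = 0.11), and its part in the results was not tested beyond the alternative given below.

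The label of the fraction was checked against marker microRNAs. The mesenchymal group of miR-199 and miR-214 summed to 71068 and 47720 RPM at E11.5 and 77308 and 75882 RPM at E12.5 (female and male), against 50504 and 33507 RPM in the PGC fraction at E11.5 and 16750 and 8693 RPM at E12.5. The miR-290 cluster, a hallmark of pluripotent and germ cells, summed to 336 and 244 RPM in somatic cells at E11.5 and 421 and 619 RPM at E12.5, against 2348 to 143011 RPM in the 4 PGC libraries. The X-linked Fx-mir cluster, also a germ cell marker, summed to 15.8, 0, 46.2 and 129.7 RPM in the somatic libraries in the same order, with 22 or more of its 31 listed members at 0 in each. In each of the 4 pairs of stage and sex the mesenchymal sum was higher, and the miR-290 and Fx-mir sums were lower, in the somatic than in the PGC library. At E11.5 the fractions were less distinct for the other markers. The miR-302 cluster summed to 495.2 and 334 RPM in somatic cells and 568 and 677 RPM in PGCs, and somatic miR-202 to 231 and 153.8 RPM against 264 and 154.8 RPM in PGCs.

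Of 448 microRNAs with a mean of at least 10 RPM, 12 were called higher at E12.5 (2.68% of those tested) and 44 lower (9.82%), 56 in all (12.5%). A call is an adjusted p under 0.05 (limma, Benjamini-Hochberg) on log2(RPM + 5), a scale that understates the change of low values. In all 56 the female and the male libraries moved in the same direction and the stages did not overlap. A call favours such agreement, because the spread between these libraries sets the p-value, so it is no separate evidence. The sexes moved in the same direction for 67.4% of the 448 tested. Among all 448 tested, both E12.5 libraries lay above both E11.5 libraries for 19.2% of microRNAs and below them for 39.5%. Over all tested microRNAs the median log2 difference was -0.29, and list medians below are to be read against it. Centring each library on its median moved that value to -0.05 and the calls to 15 higher and 32 lower. Taking out the trend with GC, on the 388 with a sequence, gave a median of 0.09 and 52 higher and 50 lower. The values as deposited have sums that still differ 3.10-fold between the E11.5 female and male libraries. On them 0 were called higher (0%, with 10 at an unadjusted p under 0.05) and 3 lower (0.67%). The median on those values was -0.07, and a list median under an alternative is to be read against the median of that alternative. With sex as a replicate block, which leaves 1 residual degree of freedom, 0 were called by limma in either direction, with 28 higher and 71 lower at an unadjusted p under 0.05. Without the E12.5 female library 3 were called higher and 21 lower, without the E12.5 male library 2 and 23, and without the E11.5 female library 19 and 44.

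**Figure D1:**
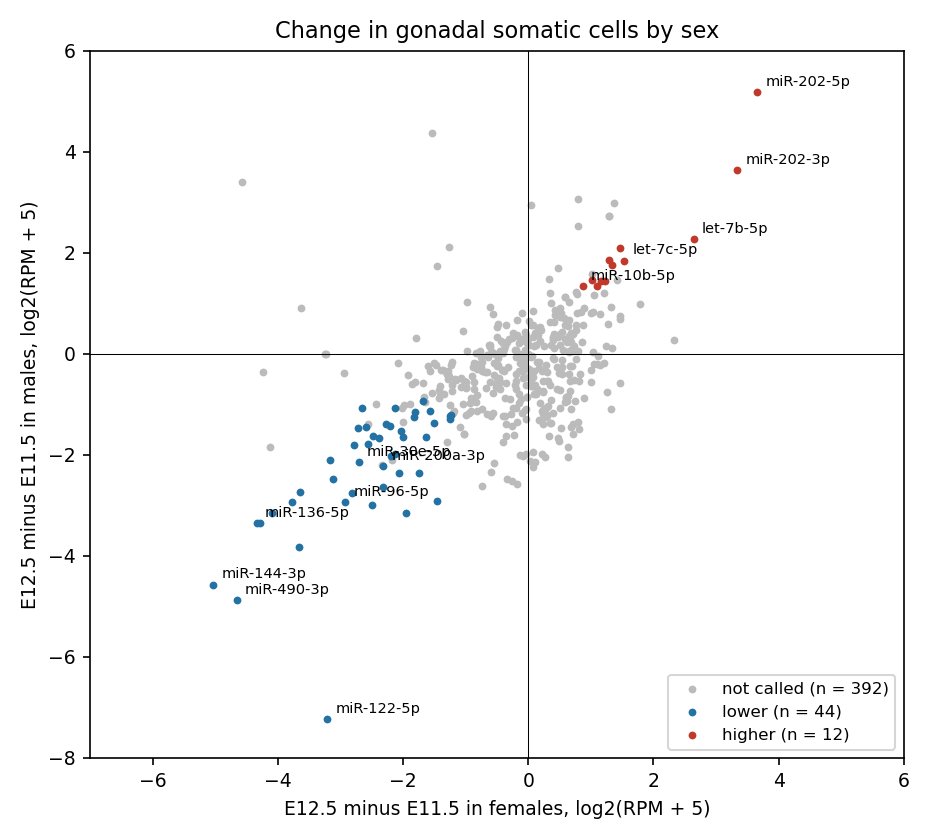
Log2 difference between E12.5 and E11.5 in females (x axis) and in males (y axis), on log2(RPM + 5), for each of the 448 microRNAs tested. Red points were called higher (12), blue points lower (44) and grey points were not called. All called points lie in the quadrants where both sexes moved the same way.

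miR-202, a microRNA enriched in gonads and known from Sertoli and granulosa lineages, showed the largest increase of all microRNAs called. miR-202-5p read 226 RPM in the female and 135.8 RPM in the male library at E11.5, and 2909 and 5097 RPM at E12.5. The fitted difference was 4.42 ± 0.41 on the log2 scale (SE, adjusted p = 0.00251), a ratio of mean RPM of 22.2. The other arm, miR-202-3p, read 5.09 RPM in the female and 18 RPM in the male library at E11.5, and 97.1 and 280.3 RPM at E12.5, with a log2 difference of 3.49 ± 0.63 (SE, adjusted p = 0.0165). The E11.5 values of miR-202-3p lay close to the 5-read floors of 2.83 and 8.18 RPM, and 6 of 15 alternatives in the processing lost its call. Both arms were above their E11.5 range in both sexes, with the male E12.5 library higher than the female for each. At E13.5, outside the comparison, miR-202-5p stood at 8436 (female) and 16334 RPM (male). In bulk RNA, more cells of a type and more microRNA per cell cannot be told apart, here and in every result that follows. The Mir202 hairpin lies on the minus strand of chromosome 7, 139957689 to 139957760 (GRCm38.p6), within the span of the lncRNA gene Gm16201. The table gives gene spans only, and strand was not considered for them, so whether a hairpin is exonic or intronic was not determined.

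The let-7 family, whose members time developmental transitions and whose processing is blocked by LIN28 in early embryonic cells, had 5 of 15 tested members called higher and none lower. The median log2 difference over the tested let-7 and miR-98 members was 1.30, and 13 of the 15 had both E12.5 libraries above both E11.5 libraries. Over all tested microRNAs 2.68% were called higher and 19.2% lay above. Together they took 1.82% and 1.31% of the reads at E11.5 (female and male) and 3.53% and 3.27% at E12.5. The family's median stayed above 0 on the deposited scale (1.53), after centring (1.54) and with the GC trend taken out (1.66).

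let-7b-5p read 27.1 RPM in the female and 39.3 RPM in the male library at E11.5, and 195.6 and 209 RPM at E12.5, with a log2 difference of 2.46 ± 0.35 (SE, adjusted p = 0.00867). This was the steepest rise in the family, from the least abundant of the called members. let-7c-5p read 2208 RPM in the female and 1829 RPM in the male library at E11.5, and 6368 and 6578 RPM at E12.5, with a log2 difference of 1.68 (adjusted p = 0.0134). let-7a-5p read 1690 RPM in the female and 1549 RPM in the male library at E11.5, and 3781 and 4229 RPM at E12.5, with a log2 difference of 1.30 (adjusted p = 0.0320). The hairpins of let-7b and let-7c-2 neighbour each other on chromosome 15 (85706603 to 85707403, plus strand) within the lncRNA gene Lncppara, and let-7a-1, let-7f-1 and let-7d lie together on chromosome 13. let-7f-5p rose by 1.23 (log2) and let-7d-5p by 1.34, with adjusted p = 0.0468 and 0.0345. let-7e-5p, let-7g-5p and miR-98-5p did not pass (log2 differences of 0.99, 0.98 and 1.30, adjusted p = 0.0766, 0.122 and 0.0759), although their stages did not overlap. let-7i-5p read 3229 and 1963 RPM at E11.5 and 4624 and 3435 RPM at E12.5, a log2 difference of 0.66 (adjusted p = 0.274). Of all 10 tested microRNAs with the let-7 seed, 5 were called higher, and their median log2 difference was 1.30.

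miR-10b, encoded in the HoxD cluster and the most abundant microRNA here, also rose. miR-10b-5p read 72304 RPM in the female and 51974 RPM in the male library at E11.5, and 131734 and 131716 RPM at E12.5, with a log2 difference of 1.103 ± 0.25 (SE, adjusted p = 0.0368). Its near-identical HoxB relative miR-10a-5p, which differs at 1 base, read 57747, 47647, 76903 and 73662 RPM in the same order and did not pass (log2 difference 0.52, adjusted p = 0.199). Together with miR-196 they took 13.5% and 10.4% of reads at E11.5 and 21.5% and 21.1% at E12.5. A share of this size bears on every other RPM value, since the reads of a library sum to a fixed total. In the same Hox list miR-196a-2-3p fell from 38.4 and 22.9 RPM to 0 in both E12.5 libraries, at least 8.80-fold lower against the mean E12.5 floor of 5 reads a library, while the main strand miR-196a-5p did not pass (log2 difference 0.72, adjusted p = 0.163). The Mir10b hairpin is on chromosome 2, 74726070 to 74726137, within the spans of Hoxd3 and Hoxd4.

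Other increases were fewer, and their counts are to be read against the 2.68% called higher over all tested microRNAs. miR-322-3p, from an X-linked cluster whose products restrain the cell cycle, read 3449 and 2942 RPM at E11.5 and 7003 and 8059 RPM at E12.5 (log2 difference 1.24, adjusted p = 0.0353), and it was the 1 called of 11 tested in that cluster. miR-135a-5p rose 2.58-fold in females, from 149.8 to 386 RPM, and 3.47-fold in males, from 142.3 RPM (log2 1.55, adjusted p = 0.0253). miR-1298-5p, hosted by the X-linked serotonin receptor gene Htr2c, rose from 83.7 and 67.1 to 211 and 256 RPM (log2 1.57, adjusted p = 0.0280). The remaining call was a germ cell marker. miR-292a-5p rose from 52.0 and 42.5 to 152.1 and 198 RPM (log2 1.78, adjusted p = 0.0214), 1 of 7 tested miR-290 cluster members. The whole cluster's sum was higher at E12.5 than at E11.5 in both sexes of both fractions, with PGC sums of 127995 and 143011 RPM at E12.5. The part of remaining PGCs in this call was not tested.

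**Figure D2:**
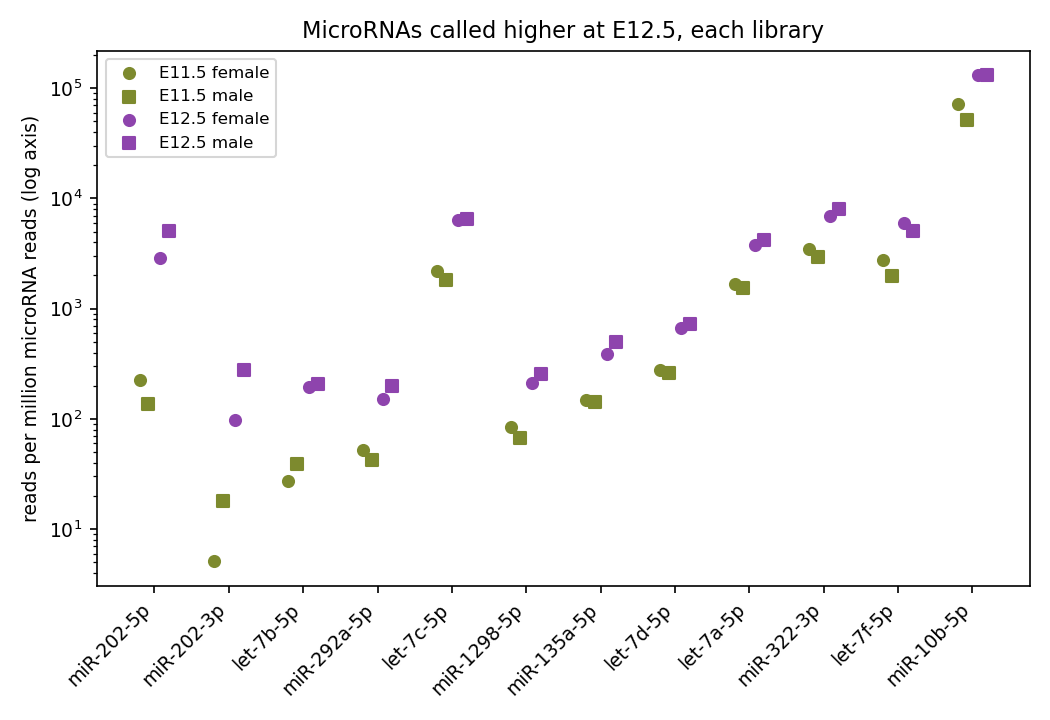
Level in RPM (log axis) of each of the 12 microRNAs called higher at E12.5, 1 point a library. Green is E11.5 and purple E12.5, circles are female and squares male. Every purple point lies above both green points of its microRNA, from miR-202-5p with the widest gap to miR-10b-5p at the top of the abundance range.

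Among the largest decreases were microRNAs known from blood and liver cells. miR-122-5p, the main microRNA of hepatocytes, read 653 RPM in the female and 3023 RPM in the male library at E11.5, and 65.7 and 15.2 RPM at E12.5, a log2 difference of -5.22 ± 0.83 (SE, adjusted p = 0.0116). The E11.5 male library was the highest of those compared, and the stages did not overlap. At E13.5, outside the comparison, the miR-122 arms summed to 842 RPM in the female and 0 RPM in the male somatic library. In PGCs they summed to 4287 and 2015 RPM at E11.5 and 0 and 43.4 RPM at E12.5 (female and male). miR-144-3p, transcribed with miR-451a in red blood cell precursors, fell from 159 and 199.6 RPM to 0 and 3.62 RPM, a log2 difference of -4.80 ± 0.46 (SE, adjusted p = 0.00251). miR-451a fell from 746 and 671 to 247 and 304 RPM (log2 -1.35, adjusted p = 0.0368). miR-142a, carried by white blood cells, fell on both arms. The 3p arm went from 154.9 and 155.4 to 6.70 and 15.9 RPM (log2 -3.36, adjusted p = 0.00653), and the 5p arm from 58.2 and 65.4 RPM to 0 in both, at least 17.7-fold lower.

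The marker lists of other cell types differed in how many members were called. Their counts are to be read against the 9.82% called lower and the 39.5% below the E11.5 range over all tested microRNAs. The erythroid list summed to 1206 and 2091 RPM at E11.5 and 475 and 512 RPM at E12.5, with 2 of its 5 tested members called lower and all 5 below the E11.5 range. The white blood cell list summed to 485.6 and 543.2 RPM at E11.5 and 299.5 and 207 RPM at E12.5, with 2 of 6 called lower, both miR-142a arms. Its other markers miR-223-3p, miR-150-5p, miR-155-5p and miR-146a-5p did not pass, with log2 differences of -0.14, 0.12, 0.33 and -0.51. The muscle list, with 1 of 3 called lower (miR-133a-3p, log2 -2.22, adjusted p = 0.0135), took 0.150% and 0.0679% of the reads at E11.5 and 0.0456% and 0.0231% at E12.5. In the mesonephros or kidney list none of 3 tested was called, and its sums were 929 and 1014 RPM at E11.5 and 630.4 and 674 RPM at E12.5. Endothelial miR-126a-3p did not pass and the stages overlapped (34461 and 27896, then 26585 and 30917 RPM, log2 -0.11, adjusted p = 0.807). In the neural list, miR-9-5p stood at 3026 RPM in the E11.5 female library against 245, 154.8 and 189 RPM in the other three, and none of 6 tested was called. The neural list's median log2 difference was -1.49, or -1.83 with the 2 members at 0 in a stage set at their bound. By sex its fitted median was -3.44 in females and -0.29 in males, against -0.10 and -0.39 over all tested microRNAs. The neural sums were 4405 and 1742 RPM at E11.5 and 1424 and 1434 RPM at E12.5 (female and male). In the E13.5 somatic libraries (female and male), outside the comparison, the erythroid list summed to 2462 and 454 RPM. The white blood cell list summed to 330 and 314 RPM there, and the muscle list to 251 and 131 RPM. The part of these cell types in the differences of other microRNAs was not tested.

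miR-490-3p, hosted by the muscarinic receptor gene Chrm2 on chromosome 6 (36421742 to 36421825, plus strand), was detected at E11.5 and in neither later stage. It read 121.5 and 142.3 RPM at E11.5 and 0 in both E12.5 libraries, at least 37.9-fold lower, a log2 difference of -4.77 ± 0.44 (SE, adjusted p = 0.00251), and 0 in both E13.5 libraries. The opposite arm, miR-490-5p, read 15.3 and 18 RPM and then 0, and was too low to be tested. Along with miR-122-5p and miR-144-3p, miR-490-3p was 1 of the 3 microRNAs called lower on the deposited values too (adjusted p = 0.0226 there).

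The imprinted Dlk1-Dio3 cluster on chromosome 12, expressed from the maternal chromosome, was the longest list. Of 81 tested, 12 were called lower and none higher, where 9.82% of all tested microRNAs were called lower, and its members had a median log2 difference of -0.50, against -0.29 over all microRNAs. The cluster's share of reads was 14.4% and 15.9% at E11.5 and 10.2% and 9.82% at E12.5. Its median stayed below 0 on the deposited scale (-0.29), after centring (-0.26) and with the GC trend taken out (-0.10, over the 78 with a sequence). Over all tested microRNAs the medians in these settings were -0.07, -0.05 and 0.09. miR-136-5p read 695 RPM in the female and 459.7 RPM in the male library at E11.5, and 29.5 and 40.6 RPM at E12.5, with a log2 difference of -3.85 ± 0.36 (SE, adjusted p = 0.00251). miR-341-3p read 3070.4 RPM in the female and 2052 RPM in the male library at E11.5, and 428.8 and 301.3 RPM at E12.5, with a log2 difference of -2.79 ± 0.36 (SE, adjusted p = 0.00653). Among abundant members, miR-381-3p fell from 10206 and 5340 to 1676 and 1940 RPM (log2 -2.03, adjusted p = 0.0178), and miR-300-3p by a similar amount (log2 -2.05). The most abundant members did not pass. miR-541-5p read 14619, 17280, 14096 and 14546 RPM in the same order (log2 -0.15, adjusted p = 0.729), and miR-379-5p and miR-411-5p gave log2 differences of -0.29 and -0.47 (adjusted p = 0.532 and 0.297). Also called lower were miR-665-3p (log2 -2.74), miR-127-5p (-2.64) and miR-376a-3p, which was at 0 in both E12.5 libraries and at least 19.9-fold lower.

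The list of the miR-17/92 cluster and its paralogues, which promote proliferation, had 6 of 22 tested members called lower and none higher. Of the 22, 17 lay below their E11.5 range. The list also holds miR-92b, whose hairpin lies on chromosome 3 outside these clusters, and both of its arms were among the 6. Over all tested microRNAs 9.82% were called lower and 39.5% lay below. The median log2 difference was -0.85, and it stayed negative under deposited values (-0.64), centring (-0.61) and removal of the GC trend (-0.59). miR-18a-5p read 1705 RPM in the female and 1482 RPM in the male library at E11.5, and 322.9 and 462 RPM at E12.5, with a log2 difference of -2.03 ± 0.33 (SE, adjusted p = 0.0116). miR-19a-3p fell from 585 and 476 to 123.9 and 113 RPM (log2 -2.11, adjusted p = 0.00926). The abundant cluster members did not pass. miR-17-5p gave a log2 difference of -0.68 (adjusted p = 0.154), miR-20a-5p of -1.09 (adjusted p = 0.0527) and miR-92a-3p of -0.64 (adjusted p = 0.263). miR-25-3p, encoded within Mcm7, was on the positive side at 0.28 (adjusted p = 0.567). miR-32-5p, which carries the same seed as miR-92 and miR-25 and is encoded within Tmem245 on chromosome 4, fell from 746 and 527 to 54.9 and 74.6 RPM (log2 -3.19, adjusted p = 0.00403). Of the 5 tested microRNAs with that seed, 2 were called lower, miR-32-5p and miR-92b-3p.

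**Figure D3:**
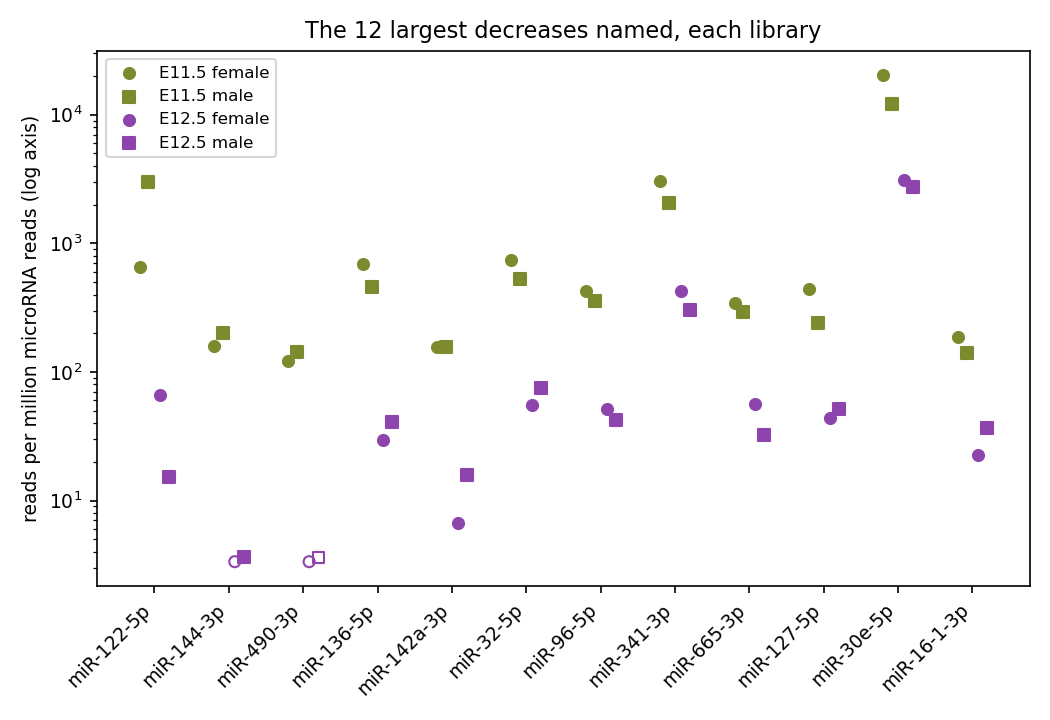
Level in RPM (log axis) of the 12 named microRNAs with the largest decreases at E12.5, 1 point a library, with the same colours and shapes as for the increases. Open symbols mark libraries listed at 0, drawn at the 5-read floor. Every purple point lies below both green points of its microRNA.

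Epithelial microRNAs fell in part, with counts to be read against the 9.82% called lower over all tested microRNAs. The cluster of miR-182, miR-183 and miR-96, transcribed as 1 unit (chromosome 6, within Mirc35hg) and known from sensory and epithelial cells, had all 3 tested members called lower. miR-96-5p fell from 427 and 355 to 51.6 and 42.0 RPM (log2 -2.93, adjusted p = 0.00403). miR-182-5p fell from 1992 and 2631 to 834 and 1068 RPM, and miR-183-5p from 1264 and 1472 to 531 and 629 RPM (log2 -1.27 and -1.23, adjusted p = 0.0467 and 0.0443). Of 15 alternatives in the processing, 11 lost the call of miR-182-5p and 10 that of miR-183-5p, against 2 for miR-96-5p. Calls given elsewhere varied as widely. miR-490-3p lost its call in 1 of 15, miR-202-5p and let-7b-5p in 2, miR-10b-5p in 6, and let-7f-5p and miR-451a in 9. miR-143-5p lost it in 12 of 14 and miR-138-5p in 13 of 15. Of the miR-200 family, which keeps cells epithelial, 1 of 7 tested was called. miR-200a-3p fell from 3647 and 3354 to 724 and 716 RPM, a log2 difference of -2.27 ± 0.28 (SE, adjusted p = 0.00653). Its cluster partners miR-200b-3p and miR-429-3p gave -0.27 and -0.24 (adjusted p = 0.670 and 0.634). In the PGC fraction the sum of miR-182, miR-183 and miR-96 went from 6550 and 35182 RPM at E11.5 to 30491 and 64586 RPM at E12.5, above the somatic sum of the same stage and sex in each case. The part of remaining PGCs in their somatic levels was not tested.

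In the miR-30 family 2 of 11 tested members were called, both 5p arms and both lower, against 9.82% called lower over all tested microRNAs. miR-30e-5p fell from 20321 and 12205 to 3099 and 2763 RPM, a log2 difference of -2.43 ± 0.33 (SE, adjusted p = 0.00735), and miR-30a-5p from 18590 and 11372 to 3842 and 4313 RPM (log2 -1.84, adjusted p = 0.0163). The opposite arm miR-30e-3p read 328, 406, 591 and 719 RPM in the same order, a log2 difference of 0.83 that did not pass (adjusted p = 0.140). miR-30c-5p and miR-30d-5p gave log2 differences of 0.44 and 0.00 (adjusted p = 0.485 and 0.995), and the median of the family was 0.20. Mir30e and Mir30c-1 both lie within Nfyc on chromosome 4 (Mir30e at 120772606 to 120772697, minus strand).

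Ratios between products of 1 hairpin or 1 cluster do not depend on the scaling of a library. The pairs were chosen after their values were seen and carry no test. miR-30e-5p outnumbered miR-30e-3p by 61.9 (female) and 30.1 (male) at E11.5 and by 5.25 and 3.84 at E12.5. The miR-96-5p to miR-182-5p ratio went from 0.214 and 0.135 to 0.0619 and 0.0393, while that of miR-183-5p to miR-182-5p was 0.634 and 0.560 and then 0.636 and 0.589. Within one cluster, therefore, miR-96 was lower relative to the other two members, whose ratio to each other was about the same at both stages. miR-200a-3p relative to miR-429-3p went from 5.41 and 4.56 to 1.19 and 1.23, and miR-18a-5p relative to miR-17-5p from 0.114 and 0.1145 to 0.0405 and 0.0487. The 3p arm of miR-322 outnumbered its 5p arm 2.17- and 2.48-fold at E11.5 and 6.36- and 6.76-fold at E12.5. Of 72 hairpins with both arms at a mean of at least 50 RPM, 8 shifted from 5p towards 3p by over 2-fold in both sexes (miR-30e, miR-30a, miR-503, miR-127, miR-136, miR-199b, miR-322 and miR-340), 1 shifted the other way (miR-17), 1 shifted in opposite directions in the sexes (miR-667) and 62 stayed within 2-fold in at least 1 sex. The 3p strand of miR-199b cannot be told apart from that of miR-199a, whose sequence it shares. At E13.5 the ratio of miR-30e-5p to miR-30e-3p was 17.4 in the female and 79.7 in the male library.

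**Figure D4:**
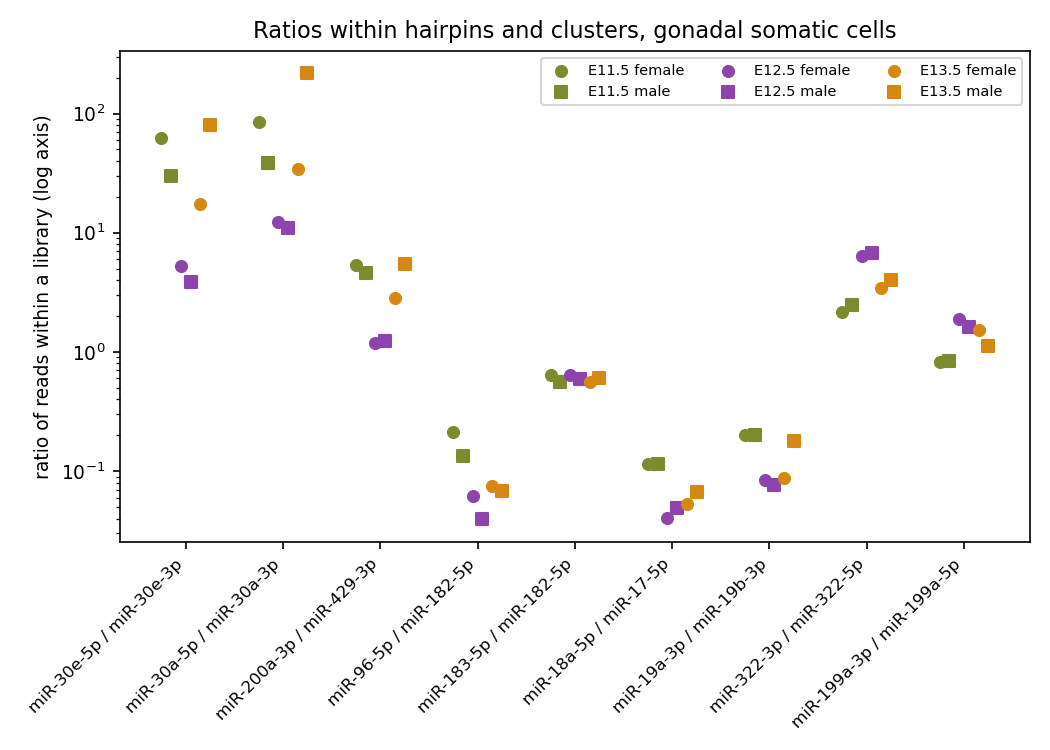
Ratio of reads of 2 microRNAs from 1 hairpin or cluster (log axis) in each somatic library. Green is E11.5, purple E12.5 and orange E13.5, circles are female and squares male. For miR-30e, miR-200a to miR-429, miR-96 to miR-182, miR-18a to miR-17 and miR-19a to miR-19b, both E12.5 libraries lie below both E11.5 libraries, and for miR-322 they lie above.

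The other groups are given by their values, with counts to be read against the 12.5% called over all microRNAs. Of all tested microRNAs 19.2% lay above and 39.5% below the E11.5 range. None of 6 tested members of the mesenchymal miR-199 and miR-214 group was called, with a median of 0.07. miR-199a-3p read 23971 and 15243 RPM at E11.5 and 35813 and 33427 RPM at E12.5 (log2 0.86, adjusted p = 0.122), and miR-199a-5p overlapped between the stages (log2 -0.22). In the group of miR-143 and miR-145 1 of 4 was called lower, miR-143-5p (log2 -1.25, adjusted p = 0.0467), while the main strand miR-143-3p went from 56794 and 47519 to 25568 and 32949 RPM without passing (log2 -0.84, adjusted p = 0.0869). The group of miR-140 and miR-455, linked to cartilage and to the developing testis, had no call among 4 tested and a median of -0.16. That median turned positive on the deposited scale (0.08) and after centring (0.08), where the medians over all tested microRNAs were -0.07 and -0.05. With the GC trend taken out the median of the group was 0.59, over only the 3 members with a sequence. All 3 tested members of miR-132 and miR-212 lay above their E11.5 range without a call, among them miR-132-3p at 69.5, 78.5, 149 and 181.8 RPM (log2 1.103, adjusted p = 0.0744). The miR-302 cluster, another pluripotency cluster, had 1 of 3 called lower, miR-302b-3p, from 198 and 188 to 60.3 and 56.5 RPM (log2 -1.65, adjusted p = 0.0214), with the other 2 also below their E11.5 range.

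**Figure D5:**
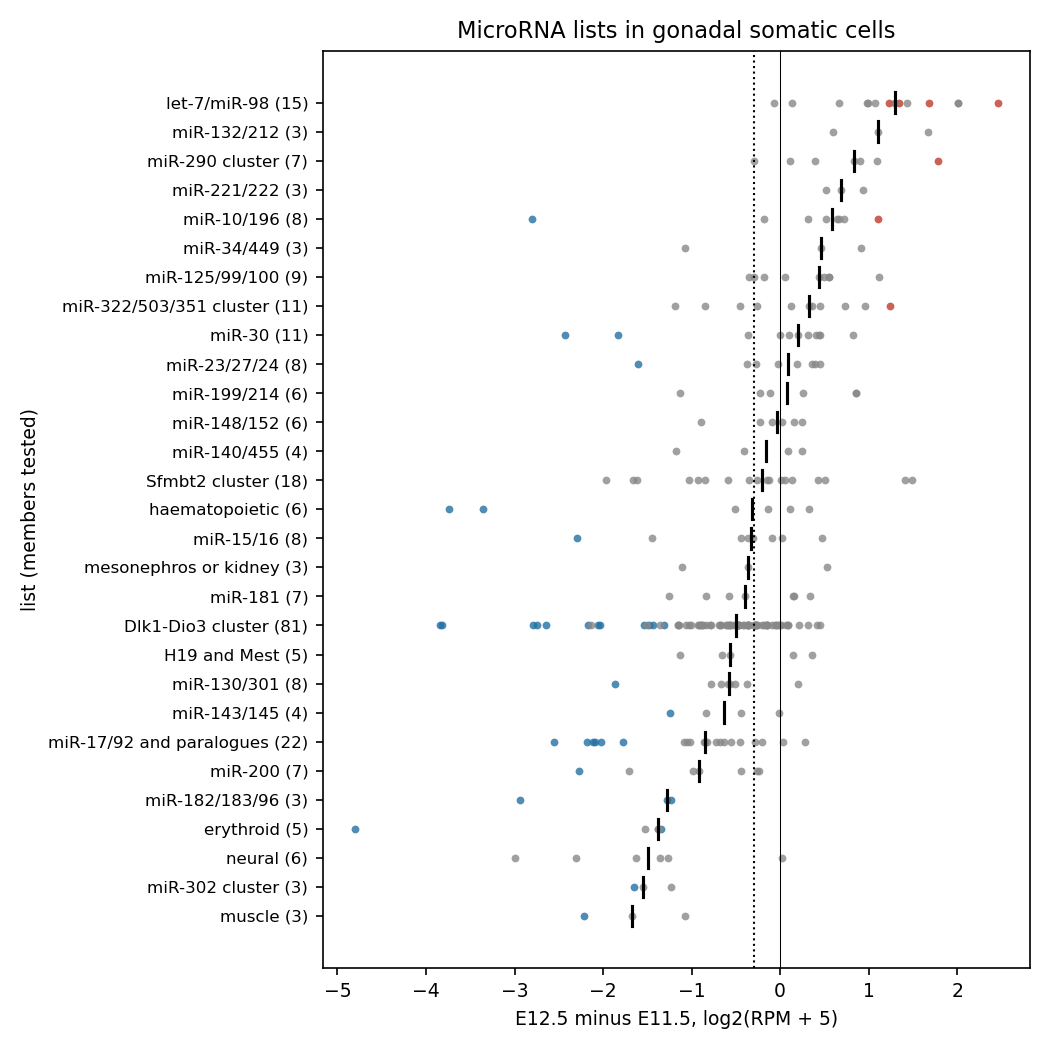
Log2 difference between E12.5 and E11.5 (x axis) of every tested member of each list, 1 point a microRNA, with lists ordered by their median (black bar) and the number tested in brackets. Red points were called higher and blue points lower, and the dotted line marks the median of all 448 tested (-0.29). let-7/miR-98 has the highest median (1.30) and the muscle list the lowest (-1.68) among lists with at least 3 tested members on these fitted values, in which 0 is taken as 0. With members at 0 set at their bound the neural list is lower (-1.83). By sex the fitted median of the neural list was -3.44 in females and -0.29 in males.

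The change in somatic cells was set against that in PGCs of the same stages, which share no library with it. By the isolation described above, the PGC and somatic libraries of a stage and sex may come from the same pool of gonads. The fit has no term for a shared pool. The difference between the changes was called for 47 microRNAs on the side of somatic cells (10.5%) and for 3 on the side of PGCs (0.67%), out of 448. The PGC change on its own was called higher for 4.46% and lower for 35.9% of the microRNAs. The 3 on the side of PGCs were miR-196a-2-3p, miR-3473b and miR-3473e, named after their values were seen. miR-196a-2-3p was at 0 in all 4 PGC libraries, so its difference repeats the somatic change and says nothing of PGCs. miR-202-5p was called on the somatic side. In PGCs it read 258 and 154.8 RPM at E11.5 and 462 and 619 RPM at E12.5, and its somatic change exceeded that in PGCs by 3.02 ± 0.66 on the log2 scale (SE, adjusted p = 0.0316). The same test did not call let-7b-5p (difference 0.40, adjusted p = 0.722), let-7c-5p (0.84, adjusted p = 0.375), miR-10b-5p (0.80, adjusted p = 0.287) or miR-490-3p (-1.49, adjusted p = 0.115). The PGC libraries of E12.5 are shallow, with a 5-read floor of 29.98 and 27.1 RPM, and 29 of the 47 microRNAs were at 0 in both of them, so their differences are upper limits. With every value at 0 set at the floor of its library, 15 were called on the somatic side, 14 of them among the 47, and 11 on the PGC side. miR-202-5p remained called (adjusted p = 0.0440). Without either E12.5 somatic library the calls on both sides fell to 0, with 79 and 80 on the somatic side at an unadjusted p under 0.05.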

How the data were processed

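Small RNA libraries of mouse gonadal somatic cells and PGCs were sequenced on a MiSeq instrument, per the labels. The submitters' processing notes name FastQC, Trim Galore, Bowtie (version 1.1.2), DESeq and the GRCm38 build. How reads were counted per microRNA, and with which annotation release, the sources used here do not state. The authors deposited a normalized signal, in which the values of a library are counts divided by a single size factor. The smallest value of each library was read as 5 reads. On that step 100% of the values came out whole (tolerance 1e-06), which gave read totals and floors. Floors and counting intervals leave out PCR duplication, since the labels name no molecular identifiers.

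Each column was rescaled to reads per 1000000 of its own sum (RPM), because deposited sums still follow depth. log2(RPM + 5) was fitted with limma 3.58.1 under R 4.3.3 (empirical Bayes with trend, 2 residual degrees of freedom, 4 libraries, no covariate) on microRNAs with a mean of at least 10 RPM, with Benjamini-Hochberg adjustment and a threshold of 0.05. The difference from PGCs was fitted on 8 libraries with 4 residual degrees of freedom. The fit was tested on simulated data. 

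Named microRNAs were the called ones with a mean of at least 50 RPM, up to 12 in each direction by size, the 10 most abundant, up to 3 of each list and both arms of miR-202. Others that are named complete a list, a hairpin or a count and were chosen after their values were seen. The comparison, the lists and this rule were chosen with earlier results of these data known. Alternatives were deposited values, other pseudocounts, no filter, sex as a block, more libraries in the fit and each library left out. limma-voom, centring, removal of a GC trend and zeros set at the floor were added after seeing the data. Sequences and positions are from RefSeq, and other tables used Python 3.11.15 with pandas 2.3.3.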

Additional observations from a re-analysis of the deposited data

Results flagged for a closer look

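For 9 microRNAs, named or called, the change between stages differed between somatic cells and PGCs by the test of the difference itself (limma on 8 libraries). The somatic change minus the PGC change, on the log2 scale, was 3.02 for miR-202-5p and 1.90 for miR-322-3p, which were both higher in somatic cells at E12.5. For mesenchymal or endothelial strands that were not called in somatic cells, it was 2.48 for miR-143-3p, 2.47 for miR-199a-3p, 2.03 for miR-199a-5p and 2.51 for miR-126a-3p. In PGCs the miR-126a sum went from 51442 and 27782 RPM at E11.5 to 7632 and 4670 RPM at E12.5 (female and male). The miR-143 and miR-145 sum went from 46751 and 32828 to 5803 and 3556 RPM. The part of somatic cells left in the PGC fraction was not tested. The somatic change minus the PGC change was at most 4.37 for miR-143-5p, 4.10 for miR-136-3p and 4.76 for miR-329-5p, which fell in somatic cells and were at 0 in both E12.5 PGC libraries. With values at 0 set at the floor of their library these 3 became 1.63, 1.35 and 2.01 and were not called (adjusted p = 0.0829, 0.181 and 0.0702). In that fit 4 of the 9 differences remained called, those of miR-202-5p, miR-143-3p, miR-199a-5p and miR-126a-3p, while miR-322-3p and miR-199a-3p had adjusted p = 0.0657 and 0.0572.

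Among the abundant microRNAs, 3 moved in opposite directions in the sexes, which was not tested with 1 library each. The ratio of E12.5 to E11.5 RPM was 1.51 in females and 0.515 in males for miR-99b-5p, 0.771 and 1.11 for miR-126a-3p, and 0.650 and 1.13 for miR-199a-5p.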

How the results depend on the processing

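The main counts were 12 microRNAs higher and 44 lower at E12.5. None of the 56 called microRNAs turned its direction under any alternative, but for most alternatives this was fixed in advance. Where stages do not overlap, leaving out a library or changing the pseudocount cannot reverse a sign. Sex as a block, more libraries in the fit and no filter keep the same stage difference. A turn was possible only with deposited values, voom, centring, removal of the GC trend or zeros at the floor. The medians of the miR-140 with miR-455, endothelial and miR-148 with miR-152 lists turned positive on deposited values (0.08, 0.14 and 0.18), after centring and without the GC trend, that of the Sfmbt2 cluster after centring (0.03) and that of H19 and Mest without the GC trend (0.09). The GC fit holds only members with a sequence, 3 of 4 for miR-140 with miR-455 and 1 of 2 for the endothelial list. The median over all tested microRNAs moved too, from -0.29 to -0.07 (deposited values), -0.05 (centring) and 0.09 (GC trend taken out). Deposited values gave 0 and 3, sex as replicate block 0 and 0, all 6 somatic libraries 3 and 19, and all 12 libraries 6 and 11, while removal of the GC trend gave 52 higher (and 50 lower). Leaving out each library gave 2 to 19 higher and 21 to 44 lower. Without the E12.5 female library there were 3 higher and 21 lower, without the E12.5 male library 2 and 23, and without the E11.5 female library 19 and 44, of which 8 and 25 were among the main calls. Pseudocounts of 1 and 20, no filter, voom, centring and zeros at the floor gave 10 to 15 higher and 32 to 48 lower. Where a library is left out, the number of replicates drops to 1 in 1 stage, and the lone library is assumed to vary like the others. Of the 24 microRNAs named by size, 3 remained called on deposited values, 0 with the replicate block, and 13 to 16 without 1 library. Sex is not a replicate number, and same-sex deviations did not pair the libraries (r = -0.15). For the difference from PGCs (47 and 3), deposited values gave 90 and 2, zeros at the floor 15 and 11, the replicate block 43 and 4, and leaving out each library 0 to 69 and 0 to 25 (0 and 0 without either E12.5 somatic library, 28 and 1 without the E11.5 PGC female, 69 and 25 without the E11.5 PGC male, 65 and 1 without the E12.5 PGC female, and 10 on the PGC side without the E11.5 somatic female library). The edgeR alternative was not run, and voom on the whole reads taken back from the deposited values stood in for it. The E11.5 male library limits depth, with a floor of 8.18 RPM.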

Other observations

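miR-199a-3p and miR-199b-3p have the same mature sequence in RefSeq (0 mismatches over 22 bases). The ratio of their values was 2.0 in each of the 4 somatic libraries, so the table holds no separate measurement of the second. miR-31-5p, miR-33-5p, miR-138-5p, miR-188-5p, miR-324-5p and miR-362-3p were called lower and belong to no list above. miR-33-5p, encoded within the sterol regulator gene Srebf2, read 80.3 and 39.3 RPM at E11.5 and 0 in both E12.5 libraries, at least 17.1-fold lower. miR-188-5p fell from 63.9 and 67.1 to 8.71 and 6.52 RPM (log2 -2.49, adjusted p = 0.0138), and miR-31-5p from 56.5 and 106.3 to 13.4 and 16.7 RPM (log2 -2.05, adjusted p = 0.0345).

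Some microRNAs that fell were followed to E13.5, chosen after their values were seen and given as values only. miR-30e-5p read 8110 and 36446 RPM at E13.5, miR-136-5p 149 and 248 RPM, and miR-96-5p 163 and 122.3 RPM, above both E12.5 libraries in each case. miR-302b-3p stood lower again, at 23.6 and 6.74 RPM.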
